A study of Mus musculus with 6 samples.

Results

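The genes examined here are nuclear-encoded subunits of the mitochondrial respiratory chain and ATP synthase, together with the Ndufaf assembly factors. They were chosen by symbol alone, as the genes named Nduf, Sdha to Sdhd, Uqcr, Cox4 to Cox8 and Atp5, and pseudogene names were left out. Cyc1, the cytochrome c1 subunit of complex III, has another name and was counted among the carriers, so that the complex III sums are without it. The rule found 94 genes under 93 symbols among the 28048 genes of the annotation, because Atp5o is listed under 2 identifiers. They comprised 38 subunits of complex I, 8 complex I assembly factors, 4 subunits of complex II, 8 of complex III, 18 of complex IV and 18 of complex V. Of these, 86 had at least 300 unique molecular identifiers (UMIs, which count RNA molecules) over all libraries, 7 had between 1 and 299, and Cox8c had 0.

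The study asked how a delay in turning on Bcl11b, the transcription factor that commits progenitors to the T cell lineage, changes early thymocyte development. Progenitors were generated in vitro from bone marrow of wild-type mice (WT) or of mice with both copies of the Bcl11b timing enhancer deleted (ΔTE), sorted as DN1, DN2a or DN2b cells, and cultured again for 4 days on OP9-DL1 cells, a mouse stromal line that presents the Notch ligand DL1. Bcl11b carried a yellow fluorescent reporter in its 3′ untranslated region in both genotypes (a mCitrine knock-in), and the bone marrow came from male and female donors of 2 to 4 months, 6 to 8 of which were pooled. RNA was counted in single cells by sci-RNA-seq3, a method that labels the RNA of fixed cells or nuclei by rounds of barcoding in plates. The labels name the molecule as nuclear RNA. There was 1 library for each genotype and starting population, 6 in all. A difference between genotypes within a start could thus not be tested. Only one shared by the 3 starts could be, with the starts in place of replicates, so that spread between mice or pools was not measured.

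The respiratory chain passes electrons from NADH (complex I) and succinate (complex II) through complex III to oxygen at complex IV, and complex V makes ATP from the proton gradient that results. Most of its subunits are encoded in the nucleus, and a small core is encoded by mitochondrial DNA, so that 2 genomes must supply 1 machine in matched amounts. The nuclear subunit genes are known as a housekeeping group whose promoters often hold sites for NRF1, GABPA (an ETS factor) and YY1. Dividing thymocyte progenitors rely on both glycolysis and respiration.

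Promoters of 300 bases, from 250 before to 50 after the annotated start, were taken from RefSeq (GRCm38.p6) and matched 77 of the 94 genes, which make 76 RefSeq genes. The letters GCGCA and GCGC with 1 base between them (NRF1), CCGGAAG (ETS) and AANATGGC (YY1) were searched on both strands. Each of the 3 was found in 19 of the 76 promoters, or 25.0%. Among the promoters of all 27025 genes in the table, 5.19% held the NRF1 letters, 9.93% the ETS letters and 6.96% the YY1 letters. At least 1 of the 3 stood in 49 of the 76 promoters (64.5%), against 19.4% of all genes, and 4 held both the NRF1 and the ETS letters (5.26%, against 1.12%). The YY1 letters were found mostly in complex I genes, in 12 of 33, while the NRF1 letters were found in 6 of 15 complex V promoters. The windows that follow show 1 match for each of 8 named genes of the group, nearest to the start where there were several, with the searched letters in capitals and written 5′ to 3′ on the strand of the gene.
Ndufs4 (complex I), YY1 letters, chr13:114388045-114388072, minus strand: gtttgcctacaggAAGATGGCggcggtc
Ndufaf4 (complex I assembly), NRF1 letters, chr4:24897961-24897988, plus strand: cagatgtctGCGCATGCGCctgtgcgga
Sdha (complex II), NRF1 letters, chr13:74350232-74350259, minus strand: cgactcggtGCGCAAGCGCagtctgtcg
Sdhd (complex II), ETS letters, chr9:50603878-50603905, minus strand: cgtctcctgcCTTCCGGttcacgcttca
Uqcrc1 (complex III), NRF1 letters, chr9:108936644-108936671, plus strand: ttccttacaGCGCTTGCGCctcagactc
Uqcrh (complex III), ETS letters, chr4:116075063-116075090, minus strand: gtatgccgcaCTTCCGGccaggtcgccg
Cox6a1 (complex IV), ETS letters, chr5:115348957-115348984, minus strand: cccatttccgCTTCCGGcgcgccggtgt
Atp5pb (complex V), YY1 letters, chr3:105959249-105959276, minus strand: tgtgcgagcgGCCATCTTgctcctgccc
A match describes these letters and is not evidence of a bound site.

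After filtering, the libraries held between 3401 and 19489 cells with a median of 386 to 485 UMIs per cell, and no barcode name was shared between libraries. Bcl11b itself, in UMIs per 1000000 non-mitochondrial UMIs (CPM), was at 302, 622 and 1104 in WT and at 115, 326 and 704 in ΔTE cultures of the DN1, DN2a and DN2b start, lower in each ΔTE library. All 8 stromal markers were detected in every library, at a summed 194 to 1401 CPM, so that each library contained some OP9-DL1 RNA. By the barcode names, the cells of each library lay in 3 reverse-transcription wells. These wells are taken as parts of 1 culture, which was not checked, and are not counted as replicates. Well 2 of the ΔTE DN2a library and well 1 of the ΔTE DN2b library stood apart from the other wells of their libraries, in the genes described here and in others, and results that rest on them are given with and without them.

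The 94 genes contributed 268824 of the 25419834 non-mitochondrial UMIs, in 60671 cells. At least 1 of them was detected in 95.2% to 95.8% of the cells of each library, with a median of 4 UMIs per cell. Their sum was 10331 CPM in WT and 10282 CPM in ΔTE cultures of the DN1 start, 10676 and 10899 CPM for the DN2a start, and 10074 and 11451 CPM for the DN2b start. The ΔTE DN2b library was thus the highest, and the WT DN2b library the lowest. Within 4 of the libraries, the 3 wells lay within 1.02-fold to 1.12-fold of each other. In the ΔTE DN2a library, the wells were at 9202, 14285 and 9911 CPM, and in the ΔTE DN2b library at 13154, 10946 and 10027 CPM.

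**Figure D1:**
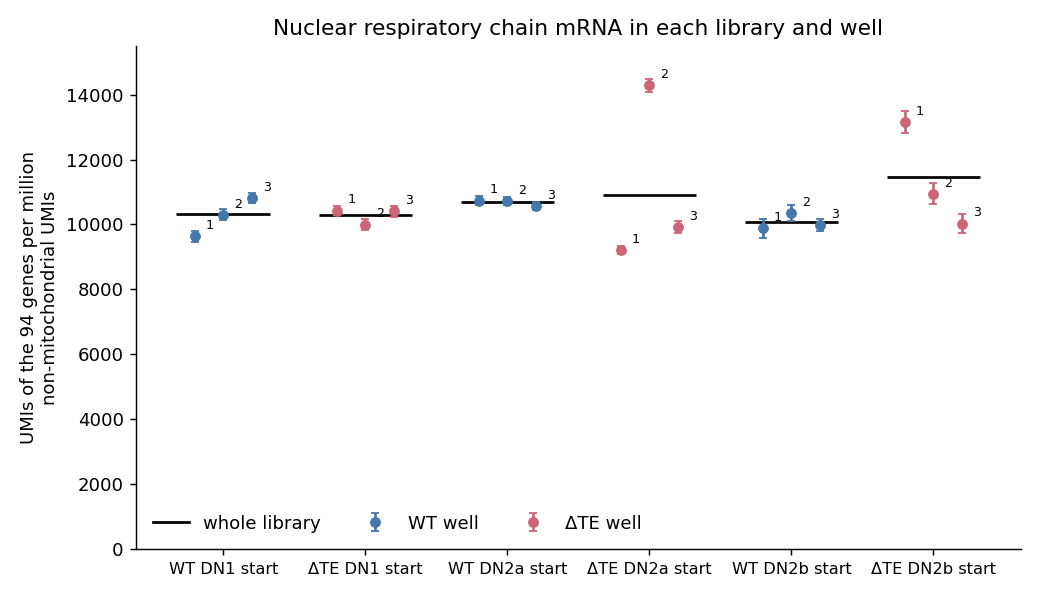
Summed level of the 94 genes in each of the 3 reverse-transcription wells of each library, in UMIs per 1000000 non-mitochondrial UMIs. Points are wells, numbered, with exact 95% Poisson intervals that cover counting error only, and black lines are whole libraries. Of the 18 wells, 16 lie between 9202 and 10946 CPM, and 1 well in each of 2 ΔTE libraries lies higher, at 14285 and 13154 CPM.

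The division of this sum between the complexes was nearly the same in every library. Complex I subunits took 30.5% to 31.8% of the UMIs of the group, complex V 29.1% to 31.3%, complex IV 20.01% to 21.4%, complex III 10.3% to 10.7% and complex II 4.61% to 5.34%. The complex I assembly factors took 2.21% to 2.90%. Over the 6 libraries, the highest library of a gene was within 1.5-fold of its lowest for 80 of the 86 genes with at least 300 UMIs, and for 63.6% of all 9133 genes with as many. These genes had a median of 2420 UMIs and all 9133 genes one of 1502. Among genes with at least 1000 UMIs, the share was 69 of 71 for the group and 75.6% for all 5948 genes.

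Levels between genes were compared as the mean CPM of the 6 libraries, with and without division by kilobases of exon. UMIs count molecules, so that the order by CPM needs no length, and the division changes it. By CPM, Atp5b was the highest with 676, followed by Atp5a1 with 435, Cox6a1 with 428 and Cox4i1 with 337. Per kb of exon, Cox6a1, a structural subunit of complex IV, was the highest with 749.9 CPM per kb. Cox4i1, another complex IV subunit, followed with 441 CPM per kb. Atp5e and Atp5g3, of the rotary part of ATP synthase, stood at 404 and 376 CPM per kb, and Ndufa4, named as a complex I subunit and since assigned to complex IV, at 360.2 CPM per kb. Atp5b, the catalytic β subunit of ATP synthase, had the most UMIs of the group with 16960, and stood at 353 CPM per kb. The assembly factors ranged from 8.27 CPM per kb for Ndufaf7 to 115 CPM per kb for Ndufaf2, which has 678 bases of exon in a span of 155909. Without the division they ranged from 17.2 CPM for Ndufaf8 to 78.0 CPM for Ndufaf2.

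The abundant members differed little between libraries. Atp5b was at 635 and 614 CPM (WT and ΔTE) for the DN1 start, at 698 and 663 CPM for the DN2a start and at 699.7 and 748 CPM for the DN2b start. Uqcrc1, a core subunit of complex III, was the steadiest of the named genes, at 179.6, 174 and 177 CPM in WT and at 182, 173 and 173 CPM in ΔTE cultures of the DN1, DN2a and DN2b start. Ndufa4 ranged from 204 to 234 CPM over the 6 libraries. Sdha, the flavoprotein of complex II that oxidises succinate, was at 249, 219.7 and 223 CPM in WT and at 235, 241 and 207 CPM in ΔTE cultures, with no order shared by both genotypes. Its partner Sdhb, which carries the iron-sulphur clusters, ranged from 127 to 148 CPM, the membrane anchor Sdhc from 96.5 to 106 CPM and the anchor Sdhd from 58.1 to 83.8 CPM. Atp5a1, the α subunit that alternates with β in the catalytic head, ranged from 405 to 452 CPM. Atp5pb, the stalk subunit b, was at 272, 289 and 333 CPM in WT and at 272, 321 and 392 CPM in ΔTE cultures, and so was highest for the DN2b start in both genotypes. The complex I subunits Ndufa10 and Ndufs4 ranged from 165 to 198 CPM and from 144 to 171 CPM. Uqcrh, the hinge protein of complex III, ranged from 153 to 186 CPM, with a DN2b ratio of ΔTE over WT of 0.28 (0.035 to 0.52).

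The 3 complex IV subunits with the most UMIs were at a higher level in ΔTE than in WT cultures of the DN2b start, while Cox5a, another subunit, was at 181 CPM (WT) and 171 CPM (ΔTE). Cox7a2, the widespread form of subunit 7a, was at 183, 183 and 158 CPM in WT and at 186, 209.8 and 221 CPM in ΔTE cultures, with a DN2b ratio of 0.49 (0.25 to 0.72). Cox4i1 was at 344, 335 and 303 CPM in WT and at 347, 337 and 355 CPM in ΔTE cultures. For the DN2b start its ΔTE wells, at 418, 324 and 315 CPM, overlapped its WT wells, at 340, 311 and 283 CPM. The highest of these was well 1 of the ΔTE library, which stands apart. Cox6a1 was at 432, 384 and 377 CPM in WT and at 439, 451 and 486 CPM in ΔTE cultures, so that its ΔTE level was higher for the DN2a start, with a log2 ratio of 0.23 (95% interval 0.15 to 0.31), and for the DN2b start, with 0.37 (0.21 to 0.52). For the DN2a start its ΔTE wells were at 385, 584 and 410.2 CPM and its WT wells at 377 to 390.3 CPM, so that 1 ΔTE well lay within the WT range. For the DN2b start its ΔTE wells, at 433, 453 and 562 CPM, lay above its WT wells, at 371 to 389 CPM. These intervals, like all others given here, are exact and cover counting error only, not the spread between cultures.

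For the DN1 start, the summed level did not differ between genotypes beyond counting error. The log2 ratio of ΔTE over WT was −0.0069 (−0.025 to 0.011), and −0.099 with a limit of 20% in place of 30% mitochondrial UMIs per cell. Of the 86 genes, 1 was more than 1.2-fold higher in ΔTE cells and 2 were lower, while 8.42% and 9.36% of all tested genes were, and 41 had a ratio above 0 (49.8% of all genes). Among the 71 genes with at least 1000 UMIs, 0 were past it in either direction (9.75% of all genes of this depth). The higher one was Ndufaf8, an assembly factor, at 14.2 CPM (WT) and 18.5 CPM (ΔTE) (0.39, −0.094 to 0.87). The lower ones were Ndufa5, a subunit of the matrix arm of complex I, at 29.2 and 21.8 CPM (−0.42, −0.81 to −0.038), and Cox4i2. Ndufv2, which carries an iron-sulphur cluster of the NADH-oxidising part, was at 120.3 and 142 CPM (0.24, 0.072 to 0.40), and Atp5mpl, a small subunit of ATP synthase, at 106 and 89.9 CPM (−0.24, −0.43 to −0.048).

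For the DN2a start, the log2 ratio of the sum was 0.030 (0.014 to 0.046). It was −0.18 (−0.20 to −0.16) without well 2 of the ΔTE library, so that the direction rested on this well, and 0.19 with the limit of 20% mitochondrial UMIs. Of the 86 genes, 1 was higher past 1.2-fold and 3 were lower, against 8.50% and 12.5% of all genes, and 48 had a ratio above 0 (47.8%). With at least 1000 UMIs, 0 of 71 were past it in either direction (13.0% of all genes). Without the well, 3 were higher and 28 lower, against 10.5% and 19.7%. The higher gene was Ndufaf3, another assembly factor, at 16.0 CPM (WT) and 23.1 CPM (ΔTE) (0.53, 0.16 to 0.91). It lies opposite Impdh2 on the other strand, and whether counting used the strand is not given in the sources used here. Beside Cox4i2, the lower genes were the assembly factor Ndufaf1, at 22.1 and 16.1 CPM (−0.46, −0.86 to −0.070), and Cox6a2, the heart and muscle form of Cox6a1, at 20.2 and 16.1 CPM (−0.33, −0.74 to 0.068). Ndufb3, a membrane-arm subunit of complex I, was at 58.8 and 69.3 CPM (0.24, 0.032 to 0.44), and its ratio was 0.044 without well 2 of the ΔTE library.

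For the DN2b start, the summed level was higher in ΔTE than in WT cells, with a log2 ratio of 0.18 (0.15 to 0.22). Without well 1 of the ΔTE library it was 0.056 (0.020 to 0.092). Of the 86 genes, 26 were higher past 1.2-fold and 3 lower, while 18.6% and 20.2% of all genes were, and 67 had a ratio above 0, against 49.3% of all genes. With at least 1000 UMIs, 22 of 71 were higher and 0 lower, and 29.8% of all genes were past it in either direction. Without the well, 14 were higher and 8 lower, against 17.8% and 22.1%. The log2 ratio was 0.21 (0.11 to 0.30) for the sum of complex III, 0.23 (0.16 to 0.30) for complex IV, 0.22 (0.16 to 0.27) for complex V and 0.16 (0.11 to 0.21) for complex I. For complex II it was −0.0048 (−0.14 to 0.13), and for the assembly factors 0.0015 (−0.20 to 0.20). Without the well, the ratio was 0.12 (0.058 to 0.19) for complex V, 0.080 (−0.031 to 0.19) for complex III, 0.074 (−0.0073 to 0.15) for complex IV and −0.0074 (−0.073 to 0.058) for complex I, so that the interval lay above 0 for complex V alone. For complex II it was then −0.10 (−0.27 to 0.060), and for the assembly factors 0.054 (−0.18 to 0.28).

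**Figure D2:**
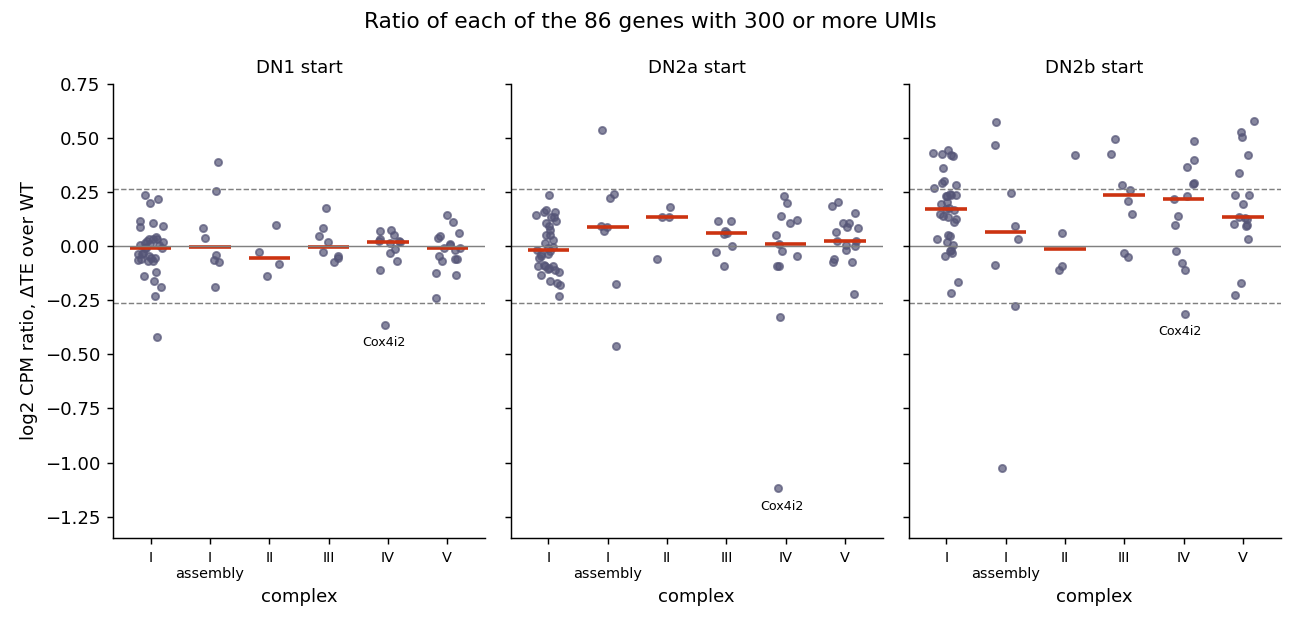
Log2 ratio of the level in ΔTE over WT cultures for each of the 86 genes with at least 300 UMIs, by complex and starting population. Points are genes, red bars medians of a complex, and dashed lines a 1.2-fold difference. For the DN1 and DN2a start 3 and 4 genes lie outside the dashed lines, and for the DN2b start 29, of which 26 are above; Cox4i2 lies below in each panel.

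The genes with the highest DN2b ratios belonged to ATP synthase and complex I assembly. Atp5k, the small subunit e of ATP synthase, was at 32.1 CPM (WT) and 47.9 CPM (ΔTE) (log2 ratio 0.58, 0.060 to 1.09). Ndufaf3 was at 18.4 and 27.4 CPM (0.57, −0.12 to 1.26). Atp5d, the δ subunit of the rotor, was at 235 and 339 CPM (0.53, 0.34 to 0.72), and its WT wells, at 230.2 to 237 CPM, lay below its ΔTE wells, at 301, 309 and 397 CPM. Uqcrq, a small subunit of complex III, was at 177 and 237 CPM (0.42, 0.20 to 0.64), and its lowest ΔTE well, at 204 CPM, lay above its highest WT well, at 194 CPM. Wells are not counted as replicates, so that this shows no more than that the difference was not that of 1 well. The lowest ratio was that of Ndufaf7, a methyltransferase needed to assemble complex I, at 27.9 CPM (WT) and 13.7 CPM (ΔTE), from 59 and 18 UMIs (−1.02, −1.87 to −0.24). Its ΔTE wells, at 6.94 to 18.7 CPM, lay below its WT wells, at 25.2 to 34.7 CPM. It was not lower for the other starts, with 22.6 and 23.1 CPM in the DN1 cultures and 21.6 and 25.5 CPM in the DN2a cultures. Ndufaf6 was at 38.7 and 31.9 CPM (−0.28, −0.85 to 0.28).

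Over the 3 starts together, 54 of the 86 genes stayed within 1.2-fold between genotypes in each, against 48.8% of all genes. None was higher past 1.2-fold in all 3 (1.80% of all genes), and 1, Cox4i2, was lower (3.59% of all genes). A genotype difference shared by the starts was tested by the quasi-likelihood test of edgeR on the library sums, with the start as a block. None of the 86 genes passed an adjusted p of 0.05, while 2.62% of all genes were called higher in ΔTE cultures and 4.08% lower. Unadjusted, 6 of the 86 were higher and 1 lower at this threshold (735 and 976 of all 9133 genes). Cox4i2 had the smallest p, with a log2 ratio of −0.64 and an adjusted p of 0.071 in edgeR, followed by Cox6a1 with 0.20 and an adjusted p of 0.12. Without both wells that stand apart, none passed in edgeR, while 1.40% of all genes were called higher and 2.88% lower. Unadjusted, 0 of the 86 were then higher and 5 lower, against 5.43% and 8.11% of all genes. Cox4i2 had an adjusted p of 0.22 in this edgeR fit. The fit rests on 6 libraries, and a difference that holds for 1 start only counts in it as spread.

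Cox4i2 (chr2:152754173-152765037, plus strand of GRCm38) encodes the second isoform of a regulatory subunit of complex IV, known from lung and from cells under low oxygen. It had 348 UMIs in all. In WT cultures of the DN1, DN2a and DN2b start it had 98, 112 and 20 UMIs, or 21.1, 14.4 and 9.44 CPM, and in ΔTE cultures 75, 33 and 10 UMIs, or 16.4, 6.63 and 7.61 CPM. The log2 ratios were −0.36 (−0.82 to 0.085), −1.12 (−1.73 to −0.55) and −0.31 (−1.57 to 0.85), so that the interval lay below 0 for the DN2a start alone. In the DN2a cultures, the WT wells, at 10.5 to 18.5 CPM, did not overlap the ΔTE wells, at 5.05 to 8.69 CPM, and the wells of the other starts overlapped. The DN2b ratio was 0.096 without 1 WT well.

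Cox4i2 was unevenly spread over cells grouped by their markers. It was at 40.8 CPM, from 11 UMIs, in cells with 2 or more myeloid markers and at 13.4 CPM in all other cells, a log2 ratio of 1.61 (0.59 to 2.47), above the rest in 3 of the 5 libraries that held such cells. In cells with stromal markers it was at 5.73 CPM (−1.304, −2.53 to −0.31), and in those with T cell markers at 6.99 CPM (−1.002, −2.23 to −0.0070). The 12 myeloid markers summed to 566 CPM in the WT and 465 CPM in the ΔTE DN1 culture, to 109 and 136 CPM in the DN2a cultures, and to 70.3 and 64.7 CPM in the DN2b cultures. The stromal sum of the DN2a cultures was 1401 CPM (WT) and 879.9 CPM (ΔTE). The part of cell composition in these ratios was not tested.

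The other isoforms known from particular tissues were low. Cox6a2 had 509 UMIs and 29.9 CPM per kb of exon, against 749.9 CPM per kb for Cox6a1, and it overlaps Itgad on the opposite strand. Ndufa4l2, which is induced by low oxygen in other cells, had 58 UMIs, the muscle forms Cox7a1 and Cox8b had 31 and 21, and the testis forms Cox6b2 and Cox7b2 had 13 and 2. Cox8c had 0 of 25419834 UMIs, which allows a level of up to 0.118 CPM. Of the 3 genes for the same mature subunit c of ATP synthase, Atp5g3 had a mean of 272 CPM, Atp5g1 135 CPM and Atp5g2 30.2 CPM. Per kb of exon, Atp5g3 stood at 376 CPM, Atp5g2 at 41.3 and Atp5g1 at 27.6. The order of Atp5g1 and Atp5g2 thus depended on the division by exon length, with 4912 bases for Atp5g1 and 731 for Atp5g2. In the DN2b cultures, Atp5g1 was at 118 CPM (WT) and 157 CPM (ΔTE) (0.42, 0.15 to 0.69), Atp5g3 at 229 and 325 CPM (0.50, 0.31 to 0.69), and Atp5g2 at 30.2 and 25.9 CPM (−0.22, −0.87 to 0.40).

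Between starting populations, the direction of the difference in the sum depended on the denominator. From the DN1 to the DN2a start it differed by a log2 ratio of 0.047 (0.031 to 0.064) in WT and 0.084 (0.066 to 0.10) in ΔTE cultures. From the DN2a to the DN2b start it was lower in WT, with −0.084 (−0.11 to −0.062), and higher in ΔTE cultures, with 0.071 (0.045 to 0.097). Per UMI of genes that span under 20 kb, DN2a over DN1 had the opposite direction, with −0.089 (−0.11 to −0.073) in WT and −0.027 (−0.045 to −0.0094) in ΔTE cultures, and DN2b over DN2a was −0.012 (−0.034 to 0.0099) and 0.023 (−0.0028 to 0.049). With the limit of 20% mitochondrial UMIs, ΔTE DN2b over DN2a was −0.023. The DN2a libraries enter both steps. Past 1.2-fold, 11 genes were higher and 5 lower in WT DN2a than DN1 cultures (19.5% and 17.4% of all genes), and 10 and 3 in ΔTE (16.8% and 15.5%). In WT DN2b against DN2a cultures 2 were higher and 12 lower (9.67% and 18.8%), and in ΔTE 9 and 6 (15.0% and 22.1%). Without well 2 of the ΔTE DN2a library, the ΔTE ratio of DN2a over DN1 was −0.12 (−0.14 to −0.10), the opposite direction, and that of DN2b over DN2a, also without well 1 of the DN2b library, was 0.15 (0.11 to 0.18).

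The assembly factors had their highest sum in the DN1 cultures. It was 295 CPM in the WT DN1, 262 CPM in the WT DN2a and 253 CPM in the WT DN2b culture, and 299, 278 and 253 CPM in the ΔTE cultures. The WT ratio of DN2a over DN1 was −0.17 (−0.27 to −0.071), with wells that did not overlap, and the ΔTE ratio was −0.10 (−0.21 to 0.0055). Ndufaf2, a chaperone for a late step of complex I assembly, carried much of it, at 93.5, 73.8 and 66.1 CPM in WT and 89.3, 77.6 and 67.7 CPM in ΔTE cultures. Ndufaf4 was at 69.2, 57.5 and 55.7 CPM in WT and at 73.3, 61.3 and 59.3 CPM in ΔTE cultures. The progenitor markers summed to 1224, 762 and 629.8 CPM in WT and 1145, 733 and 517 CPM in ΔTE cultures, and their part in these levels was not tested. In cells with 2 or more progenitor markers, 3 of the 8 assembly factors were higher past 1.2-fold than in other cells and none was lower (11.3% and 17.6% of all genes). The 3 were Ndufaf5 with a log2 ratio of 0.51 (−0.050 to 1.02), Ndufaf7 with 0.41 (−0.090 to 0.88) and Ndufaf1 with 0.34 (−0.23 to 0.87), each with an interval that includes 0. Ndufaf2 and Ndufaf4 were not among them, with 0.14 (−0.14 to 0.41) and 0.17 (−0.15 to 0.47).

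The wells that stand apart were recognised by their high sums, so that their values are a description. In well 2 of the ΔTE DN2a library, 71 of the 86 genes were more than 1.2-fold above the other wells of the library and 4 below (36.2% and 30.3% of all genes). In well 1 of the ΔTE DN2b library, 56 were above and 6 below (30.1% and 25.3%). All 13 complex IV genes were above in the former well, and 32 of 36 complex I genes. The members below in the DN2a well were Atp5l with a log2 ratio of −0.94 (−1.68 to −0.26), Atp5g2 with −0.92 (−1.56 to −0.33), the assembly factor Ndufaf5 with −0.80 (−1.69 to 0.0012), and Ndufs4, an accessory subunit of complex I, with −0.27 (−0.50 to −0.045).

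Other short genes were high in the same wells. Genes that span under 20 kb took 39.3% of the UMIs in well 2 of the ΔTE DN2a library, against 27.6% and 28.8% in its other wells, and 35.9% in well 1 of the ΔTE DN2b library, against 31.3% and 29.6%. The median span of the 94 genes was 7333 bases, and 79 spanned under 20 kb, against 63.6% of all annotated genes. Of all 9131 genes compared in the DN2a well, 3621 spanned under 20 kb. Within the group, the 73 short genes with at least 300 UMIs were 0.67 (0.64 to 0.70) higher on the log2 scale in the DN2a well, and the 13 of 20 kb or more 0.17 (0.10 to 0.24). In the DN2b well the values were 0.35 (0.30 to 0.40) and 0.20 (0.074 to 0.33), with intervals that overlap. Cytosolic ribosomal protein mRNAs were taken by symbols that begin with Rpl or Rps and a digit, p or a, a rule that also matches kinases named Rps6k. They were at 42146 CPM in the DN2a well, against 25509 and 27800 CPM in the other wells of the library. The stromal marker sum was 2131 CPM there, against 383 and 263 CPM. In the DN2b well, it was 402 CPM, against 117 and 167 CPM. The limit on mitochondrial UMIs took out 1.84% of the barcodes of the DN2a well, against 24.5% and 48.0% in the other wells, and 42.1% of those of the DN2b well, against 64.3% and 60.3%. The median was 390.0 UMIs per cell in the DN2a well, against 511.5 and 472, and 408 in the DN2b well, against 431 and 441. The part of these differences in the high sums was not tested. In the WT DN2a wells the limit took out 1.48% to 4.43%, with medians of 372 to 392 UMIs and stromal sums of 1336 to 1449 CPM. These wells were thus nearer to the ΔTE DN2a well in these values, but their short-gene shares were 30.8% to 31.2%. The DN2a genotype ratio without that well therefore compares wells with unlike losses to the limit.

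Over all 18 wells, the sum of the group and the share of short genes had a Pearson r of 0.97 (Spearman 0.78), and r was 0.78 over the 16 wells without the pair that stood apart. The wells share libraries and the short genes include the group, so that no test was made. Per UMI of short genes, the genotype ratios were −0.047 (−0.065 to −0.028) for the DN1, 0.015 (−0.00070 to 0.031) for the DN2a and 0.050 (0.020 to 0.080) for the DN2b start. The part of the short-gene share in the differences between libraries was not tested further.

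**Figure D3:**
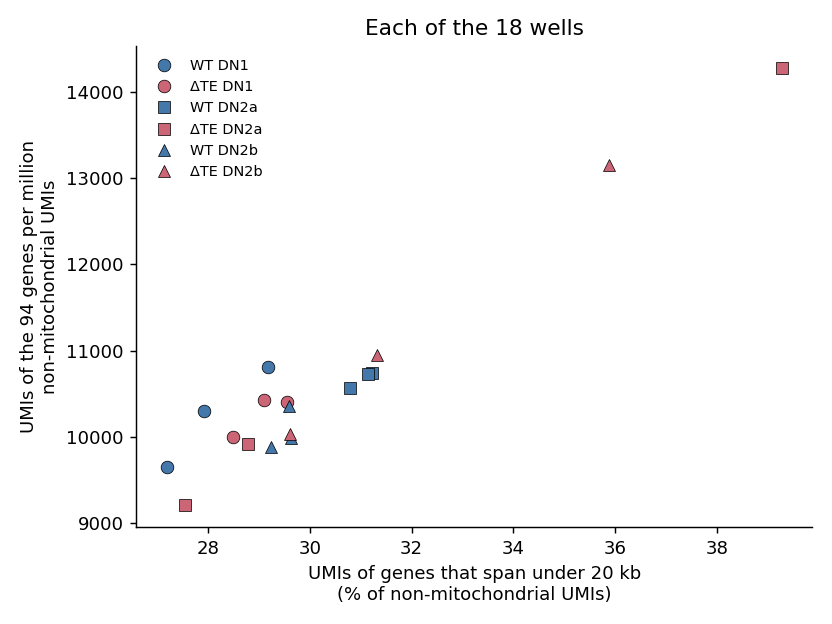
Summed level of the 94 genes (vertical axis, UMIs per 1000000 non-mitochondrial UMIs) against the share of non-mitochondrial UMIs from genes that span under 20 kb (horizontal axis, percent). Each point is 1 of 18 wells. The wells with 39.3% and 35.9% short-gene UMIs are also those with the highest sums, 14285 and 13154 CPM.

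Cells that bore at least 2 markers of a class, and at most 1 of any other class, were set against all other cells of the same library. Mitotic markers were counted apart, so that a cell with 2 of them was in that class whatever its other markers, and they kept no cell out of another class. These classes are ranges of marker counts and not cell types, and doublets were not removed. Cells with stromal markers, 2519 in all, were above the rest in each of the 6 libraries, by a log2 ratio of 0.037 to 0.38, with an interval above 0 in 5. They also had short-gene shares of 33.4% to 46.3%. Per 1000 UMIs of short genes they held 29.4 to 32.1 UMIs of the group, below the 33.4 to 37.1 of the 18 wells. The direction in stromal-marker cells thus depended on the denominator. Cells with T cell markers, 2340 in all, were below the rest in all 6, by −0.10 to −0.012, with an interval excluding 0 in 1 of them, the WT DN2b library (−0.067, −0.13 to −0.0073). Per 1000 UMIs of short genes they held 33.5 to 36.1 UMIs of the group, within the range of the 18 wells, so that no direction is read for this denominator. Of the 86 genes, 2 were higher in them past 1.2-fold and 8 lower (12.8% and 24.9% of all genes). Cells with ILC or NK markers were above the rest in 5 of 6 libraries, by −0.044 to 0.081, with 1 gene higher and 5 lower (6.34% and 13.5%). They held 34.2 to 37.2 UMIs of the group per 1000 UMIs of short genes, and no direction is read from this either. Ndufaf4 was at 77.9 CPM in them, against 61.8 CPM (0.33, 0.0996 to 0.56), and higher in 6 of 6 libraries. Cells with progenitor markers were above the rest in 3 of 6, with 6 genes higher and 9 lower (11.3% and 17.6%). Cells with mitotic markers, 21354 in all, were above the rest in 3 of 6, by −0.089 to 0.015. Cells with myeloid markers, 545 in all, were below in 4 of the 5 libraries that held any. Their log2 ratios were −0.27 (−0.35 to −0.18) in WT DN1, −0.12 (−0.21 to −0.030) in ΔTE DN1 and −0.42 (−0.71 to −0.13) in WT DN2a cultures, and 0.11 (−0.12 to 0.32) in ΔTE DN2a cultures.

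**Figure D4:**
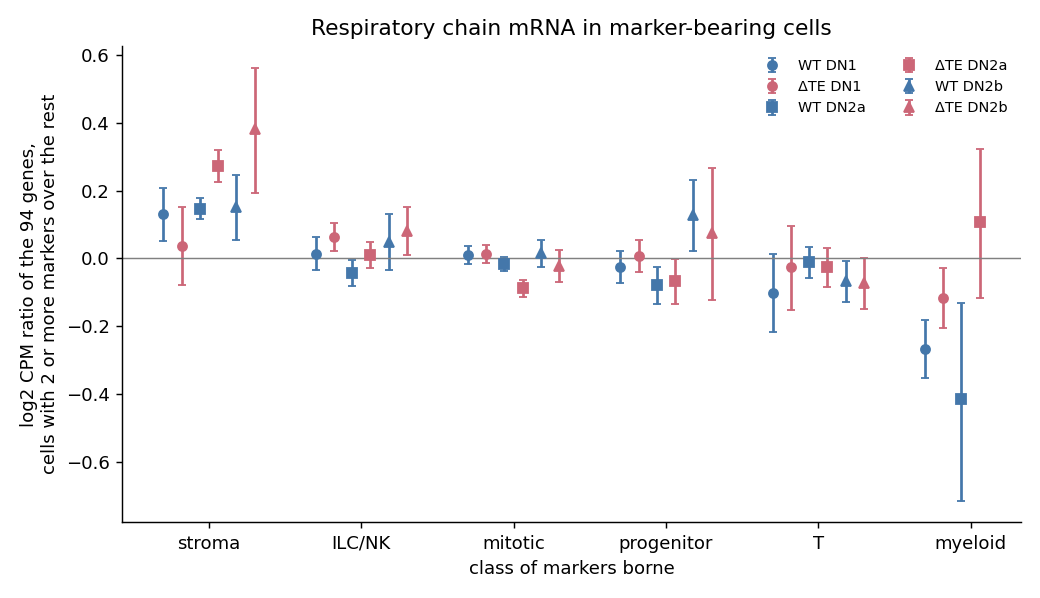
Log2 ratio of the summed level of the 94 genes in cells with 2 or more markers of a class over the rest of the same library, with exact 95% intervals for counting error. Each point is a library, and a class with under 20 cells in a library is not drawn. Cells with stromal markers lie above 0 in all 6 libraries (0.037 to 0.38), cells with T cell markers below 0 in all 6, and cells with myeloid markers below 0 in 3 of the 4 drawn. The stromal direction holds for this denominator and not per UMI of short genes.

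Single genes differed far more in stromal-marker cells than the sum did. With the libraries summed, 38 of the 86 genes were higher past 1.2-fold and 22 lower, against 26.6% and 54.7% of all genes. Complex I subunits were mostly higher, 21 of 36 with 5 lower, led by Ndufv3, a small subunit of the NADH-oxidising part, at 209.9 CPM against 82.0 CPM (1.36, 1.17 to 1.53), and Ndufa5, at 58.7 against 26.7 CPM (1.14, 0.79 to 1.47). Complex II was mostly lower, with 1 of 4 genes higher past 1.2-fold, 3 lower and a summed log2 ratio of −0.29. Sdhc was at 171 CPM against 97.6 CPM (0.80, 0.61 to 1.00) and higher in 6 of 6 libraries, while Sdha was at 139 against 237 CPM (−0.77, −0.98 to −0.56) and Sdhb at 92.4 against 137 CPM (−0.56, −0.83 to −0.31), both lower in all 6. Sdhd was at 48.0 against 77.3 CPM (−0.69, −1.06 to −0.33), above the rest in 2 of 6 libraries. Cox6a2 was at 6.45 against 20.8 CPM (−1.69, −2.83 to −0.75), Ndufaf4 at 23.6 against 65.5 CPM (−1.47, −2.01 to −0.97) and Ndufaf6 at 17.2 against 39.9 CPM (−1.21, −1.86 to −0.63).

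In myeloid-marker cells 39 genes were lower past 1.2-fold and 5 higher, against 37.1% and 26.9% of all genes. Mitotic-marker cells differed least, with 1 gene lower and none higher (11.0% and 5.39% of all genes). That gene was Ndufv3, at 76.8 CPM against 98.3 CPM (−0.36, −0.48 to −0.23), lower in 6 of 6 libraries.

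**Figure D5:**
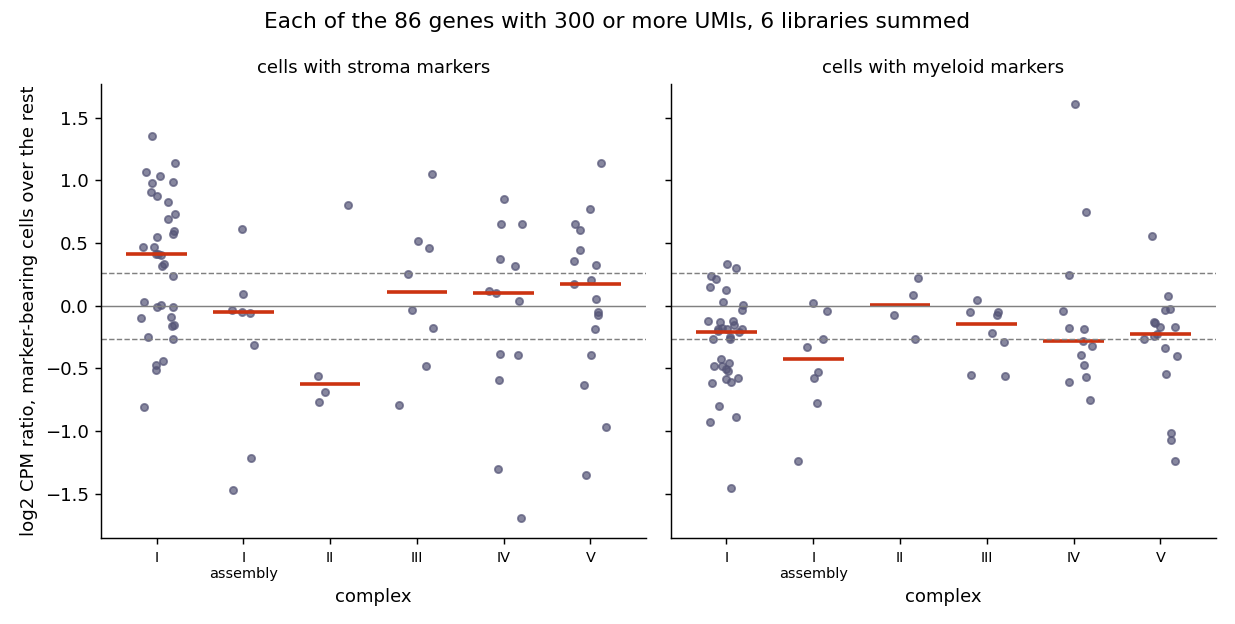
Log2 ratio of the level of each of the 86 genes in cells with stromal markers (left) and myeloid markers (right) over all other cells, with the 6 libraries summed. Points are genes, red bars medians by complex and dashed lines a 1.2-fold difference. In stromal-marker cells the genes spread from −1.69 (Cox6a2) to 1.36 (Ndufv3) with complex I mostly above 0, and in myeloid-marker cells 39 of 86 lie below the lower dashed line.

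Other genes of respiration and carbon metabolism were examined as lists. Past 1.2-fold for the DN2b start were 18.6% (higher) and 20.2% (lower) of all genes. Between genotypes, 0 of 13 genes of the citric acid cycle were past 1.2-fold for the DN1 start, 1 was higher for the DN2a start, and 2 were higher and 1 lower for the DN2b start. For the DN2b start the list had a summed log2 ratio of 0.076 (0.0021 to 0.15). The glycolytic genes, among them Pkm and Ldha, had summed ratios of 0.071 (0.034 to 0.11), −0.019 (−0.049 to 0.012) and 0.22 (0.16 to 0.28), with 4 of 13 higher and 1 lower in the last. Cytosolic ribosomal protein genes, by the symbol rule given above, had 0.11 (0.099 to 0.12), 0.030 (0.021 to 0.039) and 0.28 (0.26 to 0.30), with 46 of 89 higher and 1 lower for the DN2b start. Mitochondrial ribosomal protein genes had 0.071 (0.019 to 0.12) for the DN2b start, with 18 of 75 higher and 6 lower. Assembly factors of other complexes had 0.033 (−0.056 to 0.12) there, with 9 of 34 higher and 6 lower, and carriers such as Slc25a5, the ADP/ATP exchanger, 0.21 (0.12 to 0.31), with 3 of 9 higher. The regulators, which include Nrf1, Yy1 and Gabpb1, had −0.044 (−0.14 to 0.052), with 1 of 12 higher and 3 lower. Without both wells that stand apart, the glycolytic ratio of the DN2a cultures was −0.25 (−0.28 to −0.21), and that of the DN2b cultures 0.062 (−0.0097 to 0.13). That of the cytosolic ribosomal protein genes was then −0.21 (−0.22 to −0.20) and 0.14 (0.12 to 0.16), with 13 of 89 higher and 3 lower for the DN2b start, against 17.8% and 22.1% of all genes. Without the well, the DN2b ratios of the citric acid cycle, at 0.012 (−0.075 to 0.099), the carriers, at 0.10 (−0.012 to 0.21), and the mitochondrial ribosomal protein genes, at −0.044 (−0.11 to 0.017), had intervals that include 0. Nrf1 was at 294, 254 and 302 CPM in WT and at 303, 250.4 and 269 CPM in ΔTE cultures.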

How the data were processed

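Per the labels and methods of the study, RNA was measured by sci-RNA-seq3 in 6 libraries, and per the submitters' processing notes the genome build was mm9; the aligner and the use of strand are not given in the sources used here. The authors deposited, for each library, a matrix of UMI counts per gene and barcode, not normalized. A barcode was used if it had 200 genes or more, no more than 2000 UMIs, and no more than 30% of them mitochondrial. Counts were summed by library and well and divided by the UMIs of all genes but the mitochondrial ones (CPM, scaled to 1000000). The limit on mitochondrial UMIs took out 2.59% of WT DN2a barcodes and between 26.8% and 56.6% elsewhere.

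With 1 library per group, log2 ratios of CPM within a start are given without a test, with exact 95% intervals (conditional binomial for ratios, Poisson for levels). Genes past 1.2-fold were counted among those with at least 300 UMIs, beside the share of all such genes. UMIs of 1 cell are not independent of its capture, so that intervals cover counting error only. A genotype effect shared by the 3 starts was fitted on the library sums with the quasi-likelihood test of edgeR, with the start as a block and Benjamini-Hochberg adjustment over all 9133 genes with at least 300 UMIs. This fit was added after seeing the data. In sums over a culture, fewer cells of a type and less RNA per cell cannot be told apart.

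The group, the gene and marker lists and the motifs were chosen with earlier results of these data known. Named genes are the 3 of most UMIs in each complex, all of complex II, the 3 highest and lowest ratios for each start, those past 1.2-fold in all 3 starts, isoforms of particular tissues, the subunit c genes and up to 3 of each other list. Others (Atp5l, Atp5e, Ndufs4, Ndufaf5, Ndufv3 and genes in counts of 5 or fewer) were named after their values were seen. Spans and exon lengths came from GENCODE M21 (GRCm38), matched by Ensembl identifier, and 34 of the 94 genes overlap another gene. Calculations used Python 3.11.15, NumPy 2.4.6, SciPy 1.17.1 and pandas 2.3.3, and the ratio, its interval and the blocked fit were tested on simulated data. TMM factors of edgeR 4.0.16 (R 4.3.3), other filters, folds and denominators, and leaving out each well were tried as alternatives. Mitochondrial genes stayed out of all totals.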

Additional observations from a re-analysis of the deposited data

How the results depend on the processing

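No paired analysis was possible because each group has 1 library and the replicate numbers pair nothing; the fit that pairs the genotypes by start is another design, given with and without both wells in the report. Beside leaving out each well, 18 settings were tried, of which the totals of short genes and the loss of both wells that stand apart were chosen after seeing the data. Ratios are log2 ratios of the sum, and counts are of genes past 1.2-fold in ΔTE against WT cultures, higher then lower; 148 values stayed within the spread between wells or, for counts, within 1.5-fold, and 118 did not. The cause was not tested. Shares of all genes stand beside the counts above for the main setting, for at least 1000 UMIs and without both wells. For the other settings they are not given, so that a count there shows how it moved and is no result about the group.

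With at most 20% mitochondrial UMIs, the genotype ratios were −0.099 (DN1), 0.19 (DN2a) and 0.25 (DN2b), those of DN2a over DN1 0.0076 (WT) and 0.29 (ΔTE), and that of DN2b over DN2a −0.023 (ΔTE), with counts of 3 and 12 (DN1), 23 and 1 (DN2a) and 41 higher (DN2b), and Ndufaf6 for the DN2b start turned to 0.26. With no such limit, the genotype ratios were 0.017 (DN1) and 0.0024 (DN2a), that of ΔTE DN2a over DN1 0.024, and the DN1 counts 0 and 1. With mitochondrial genes in the totals, the DN2a genotype ratio was −0.096 with 9 genes lower, DN2a over DN1 0.19 (WT) and 0.10 (ΔTE), and DN2b over DN2a −0.23 (WT) and 0.031 (ΔTE). With totals of genes under 20 kb, the genotype ratios were −0.047 (DN1) and 0.050 (DN2b), DN2a over DN1 −0.089 (WT) and −0.027 (ΔTE), DN2b over DN2a −0.012 (WT) and 0.023 (ΔTE), with 4 genes lower (DN1) and 16 and 7 (DN2b). Without both wells, the genotype ratios were −0.18 (DN2a) and 0.056 (DN2b), ΔTE DN2a over DN1 −0.12 and ΔTE DN2b over DN2a 0.15, with counts of 3 and 28 (DN2a) and 14 and 8 (DN2b). With TMM, DN2a over DN1 was 0.076 (WT) and 0.11 (ΔTE). Relative to the median gene, it was 0.11 (ΔTE), and DN2b over DN2a −0.059 (WT). With equal weight per cell, it was 0.11 (ΔTE), and the DN2a genotype ratio 0.050. With at least 300 genes per cell, they were 0.057 and 0.013, with 2 (DN1) and 3 (DN2a) genes higher. Without mitotic-marker cells, the DN2a genotype ratio was 0.060, ΔTE DN2a over DN1 0.13 and ΔTE DN2b over DN2a 0.043, with counts of 3 and 6 (DN1) and 3 and 0 (DN2a). Without stromal-marker cells, ΔTE DN2a over DN1 was 0.065, with 2 genes higher for the DN1 and 2 for the DN2a start.

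At 1.5-fold, the counts were 0 and 0 (DN1), 0 and 1 (DN2a) and 0 and 1 (DN2b). With at least 1000 UMIs they were 0 and 0 for the DN1 and DN2a starts, with 0 lower for the DN2b start. With at least 60 UMIs, 2 genes were higher for the DN1 and 2 for the DN2a start, and with 1 UMI in each library 4 were higher (DN1), 2 higher and 5 lower (DN2a) and 5 lower (DN2b).

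Leaving out 1 well at a time, the genotype ratios ranged from −0.044 to 0.043 (DN1, without WT wells 1 and 3), from −0.18 to 0.21 (DN2a, without ΔTE wells 2 and 1) and from 0.056 to 0.27 (DN2b, without ΔTE wells 1 and 3). DN2a over DN1 ranged from 0.010 to 0.097 (WT) and from −0.12 to 0.26 (ΔTE), and DN2b over DN2a from −0.10 to −0.071 (WT) and from −0.11 to 0.28 (ΔTE). The counts ranged from 0 to 4 and 1 to 4 (DN1), 2 to 30 and 2 to 28 (DN2a), and 14 to 47 and 1 to 8 (DN2b). Cox4i2 for the DN2b start ranged from −0.57 without WT well 3 to 0.096, the opposite direction, without WT well 1. In the DN2b libraries, Cox4i2 (20 and 10 UMIs) and Ndufaf7 (59 and 18 UMIs) are limited by depth.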

Other observations

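All mitochondrially encoded genes were left out of all totals above. Of their subunit genes, 12 with Nd, Co or Atp names were summed, without the cytochrome b gene mt-Cytb. The UMIs of these 12 were 2.30, 1.34 and 2.03 times those of the 94 nuclear genes in the WT DN1, DN2a and DN2b libraries. In the ΔTE libraries they were 2.24, 2.05 and 2.05 times those of the nuclear genes. The lowest ratio belonged to the WT DN2a library, which also lost the smallest share of cells to the limit on mitochondrial UMIs, 2.59% against 26.8% to 56.6% in the others. The limit acts on the same UMIs, so that no difference between libraries is read from these ratios.

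Ndufv3 differed between the marker classes. It was at 209.9 CPM in cells with stromal markers, 93.5 CPM in those with T cell markers, 86.9 CPM in those with ILC or NK markers, 76.8 CPM in those with mitotic markers, 74.3 CPM in those with myeloid markers and 59.9 CPM in those with progenitor markers. The progenitor value differed from that of all other cells by a log2 ratio of −0.60 (−0.94 to −0.27) and was above the rest in 1 of 6 libraries. Its library levels were 77.1, 98.7 and 82.6 CPM in WT and 78.1, 91.8 and 111 CPM in ΔTE cultures of the DN1, DN2a and DN2b start. The stromal markers summed to 359, 1401 and 541 CPM and to 194, 879.9 and 237 CPM in the same order.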
